A study of Mus musculus with 6 samples.

Results

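Metrn, the gene of the secreted protein meteorin, was examined together with 8 genes that mark radial glia: Nes, Vim, Fabp7, Slc1a3, Msi1, Prom1, Ptn and Ptprz1. The members were found by gene symbol in the array's platform annotation, which named 16 of the 45276 probes for them. They are 9 of the 19054 genes that the array names. Metrn was chosen by its measured difference in the comparison described here, where it was among the genes called higher in the mutants, so that difference is a description and no test. The other 8 were listed by name, with earlier results of these data known, and the question put to them was whether they move with Metrn. Of the 16 probes, 11 were above background on every array, and each of the 9 genes had at least 1 of these. Metrn was 1.61-fold higher in the mutants, while 0 of the 8 radial glia genes were called by limma at an adjusted p under 0.05, a call made for 0.171% of all tested genes in either direction.

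Mice were of the ICR (CD-1) strain, and rhombomere 1, the most anterior segment of the hindbrain, had been dissected at E12.5. Controls carried En1-cre and 1 floxed Gata2 allele beside 1 unfloxed allele (Gata2 flox/+). Mutants carried En1-cre and 2 floxed alleles (Gata2 flox/flox). All embryos used were thus En1-cre carriers with at least 1 floxed Gata2 allele, although the controls are titled wildtype, and En1-cre recombines in the midbrain and rhombomere 1, among other places where En1 is expressed. Each group held 3 pools of 6 dissected pieces, and every pool gave RNA for 1 array (Illumina Mouse WG-6), which reads RNA as the brightness of beads with gene probes. Nothing was given as a treatment, and the tissue was a mixture of all cell types of the segment.

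Radial glia are the elongated stem cells of the embryonic nervous system. Their cell bodies line the ventricle, their processes reach the outer surface, and they give rise to neurons first and to glia later. Meteorin is a secreted protein made by neural progenitors, radial glia and astrocytes, and in culture it promotes the formation of glia and the extension of axons. The listed genes mark different features of the same cells: the intermediate filaments of their processes (Nes, Vim), a fatty acid carrier (Fabp7), a glutamate transporter (Slc1a3), an RNA-binding protein of stem cells (Msi1), a protein of apical membrane protrusions (Prom1), and the growth factor pleiotrophin (Ptn) with its receptor phosphatase (Ptprz1).

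The 250 bases upstream of the annotated start of Metrn and of the 2 listed genes with the most positive differences, Nes and Vim, are shown so that the promoter of the gene that differed can be set beside promoters of genes that were not called. They are printed 5′ to 3′ on the gene's strand from RefSeq's table of build GRCm38.p6. The Metrn stretch lies at chr17:25797046-25797295 on the minus strand, the Nes stretch at chr3:87970843-87971092 on the plus strand, and the Vim stretch at chr2:13574061-13574310 on the plus strand. None of the 3 stretches overlaps an annotated gene in the RefSeq gene table of that build. Capitals mark CCAAT boxes (CCAAT, or ATTGG on the other strand) and GC boxes (GGGCGG, or CCGCCC on the other strand).
Metrn: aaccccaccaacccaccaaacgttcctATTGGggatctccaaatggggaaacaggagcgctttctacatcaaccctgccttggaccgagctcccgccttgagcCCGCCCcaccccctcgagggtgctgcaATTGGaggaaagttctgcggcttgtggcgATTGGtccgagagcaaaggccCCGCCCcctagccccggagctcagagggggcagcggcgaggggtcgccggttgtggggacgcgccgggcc
Nes: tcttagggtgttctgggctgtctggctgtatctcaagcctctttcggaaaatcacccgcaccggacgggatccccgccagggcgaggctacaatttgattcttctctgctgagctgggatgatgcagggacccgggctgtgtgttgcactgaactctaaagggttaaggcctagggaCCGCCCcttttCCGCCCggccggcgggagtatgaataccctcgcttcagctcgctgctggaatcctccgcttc
Vim: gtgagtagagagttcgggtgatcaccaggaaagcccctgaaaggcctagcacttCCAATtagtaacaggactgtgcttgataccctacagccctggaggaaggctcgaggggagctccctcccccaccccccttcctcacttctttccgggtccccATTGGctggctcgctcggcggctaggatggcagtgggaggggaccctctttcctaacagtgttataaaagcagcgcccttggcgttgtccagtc
The Metrn stretch held 3 CCAAT boxes, at 223, 120 and 91 bases before the start, and 2 GC boxes, and its GC content was 65.6% with 18 CpG pairs. The Nes stretch held 2 GC boxes and 0 CCAAT boxes, with 15 CpG pairs, and the Vim stretch held 2 CCAAT boxes and 0 GC boxes, with 8 CpG pairs. No marked motif overlapped another. Among all 32851 promoters of the same length, 33.8% held a CCAAT box on either strand and 32.7% a GC box, so neither is rare, and the median promoter held 6 CpG pairs. The GATA motif, searched on both strands as AGATAA or with T first, G last or both, was found in 26.5% of all promoters and in 0 of these 3. Of the 8 members with a promoter in the table (all but Msi1), only Prom1 held one, at 180 bases before the second of its 2 annotated starts. The same search found the STAT word TTCNNNGAA in 7.02% of all promoters and, of the members, only in Slc1a3. The RBPJ word GTGGGAA (5.42% of all promoters) and the SOX words ACAATG and ACAAAG (25.2%) were in none of the members' stretches. These are matches of letters, and no binding was measured.

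On the 6 arrays 42.8% to 45.1% of probes were above background, and the raw median intensity was 69.8 to 76.7. Mutant array 1R stood apart from its group more than the others: its limma array weight, which is lower the more an array departs from its group, was 0.59, and the other 5 lay between 0.94 and 1.24. Without it 0 of the 8 radial glia genes were called, as with it, while 0.494% of all tested genes were. The values below are normalized log2 intensities, and a difference is mutant minus control with its standard error from limma. The number of arrays, 3 per group, limits their precision, and so does closeness to background for dim probes. The Gata2 probe read 10.71, 10.41 and 10.48 on control arrays 5R, 6R and 7R, and 10.79, 10.79 and 11.09 on mutant arrays 1R, 2R and 3R. The targeted gene was therefore not lower in the mutants by this probe, which checks nothing if it lies outside the deleted part, and no source used here places it. The genotype is taken from the labels. The tissue markers En1 (11.16 to 11.78) and En2 (12.14 to 12.66) were above background on all arrays. Otx2, a factor of the midbrain and forebrain, was also above background on all 6 arrays (7.82 to 8.74), with a group difference of 0.01.

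Metrn was higher in all 3 mutant pools than in any control pool. Its only probe read 9.70, 9.82 and 9.69 on control arrays 5R, 6R and 7R, and 10.49, 10.57 and 10.22 on mutant arrays 1R, 2R and 3R. The control values lay close together, while the mutants were spread over a wider range, with array 3R the lowest of them. As raw brightness the probe gave 871, 972 and 777 in controls and 1501, 1712 and 1237 in mutants, so the order of the groups did not come from the normalization. The means were 9.74 ± 0.07 and 10.43 ± 0.18 (SD, n = 3), a difference of 0.69 ± 0.11 with a 95% interval of 0.45 to 0.93, or 1.61-fold. By size of the signed difference, 13 of the 10524 tested genes lay above it. Its adjusted p, 0.0205 (limma, Benjamini-Hochberg over all genes tested), is the value by which the gene was chosen and is given as such. Of the tested genes 0.171% were called at an adjusted p under 0.05 in either direction, 18 genes (52 without mutant array 1R), and 0.038% were called higher, 4 genes. The call was lost without control array 5R (adjusted p = 0.146), 6R (0.0863) or 7R (0.112), or without mutant array 2R (0.118), while the difference lay between 0.62 and 0.79 over the 6 omissions. Without mutant array 1R it was 0.66 (adjusted p = 0.0254). In pooled tissue, more cells that express a gene and more RNA per cell cannot be told apart, which holds for every gene below.

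**Figure D1:**
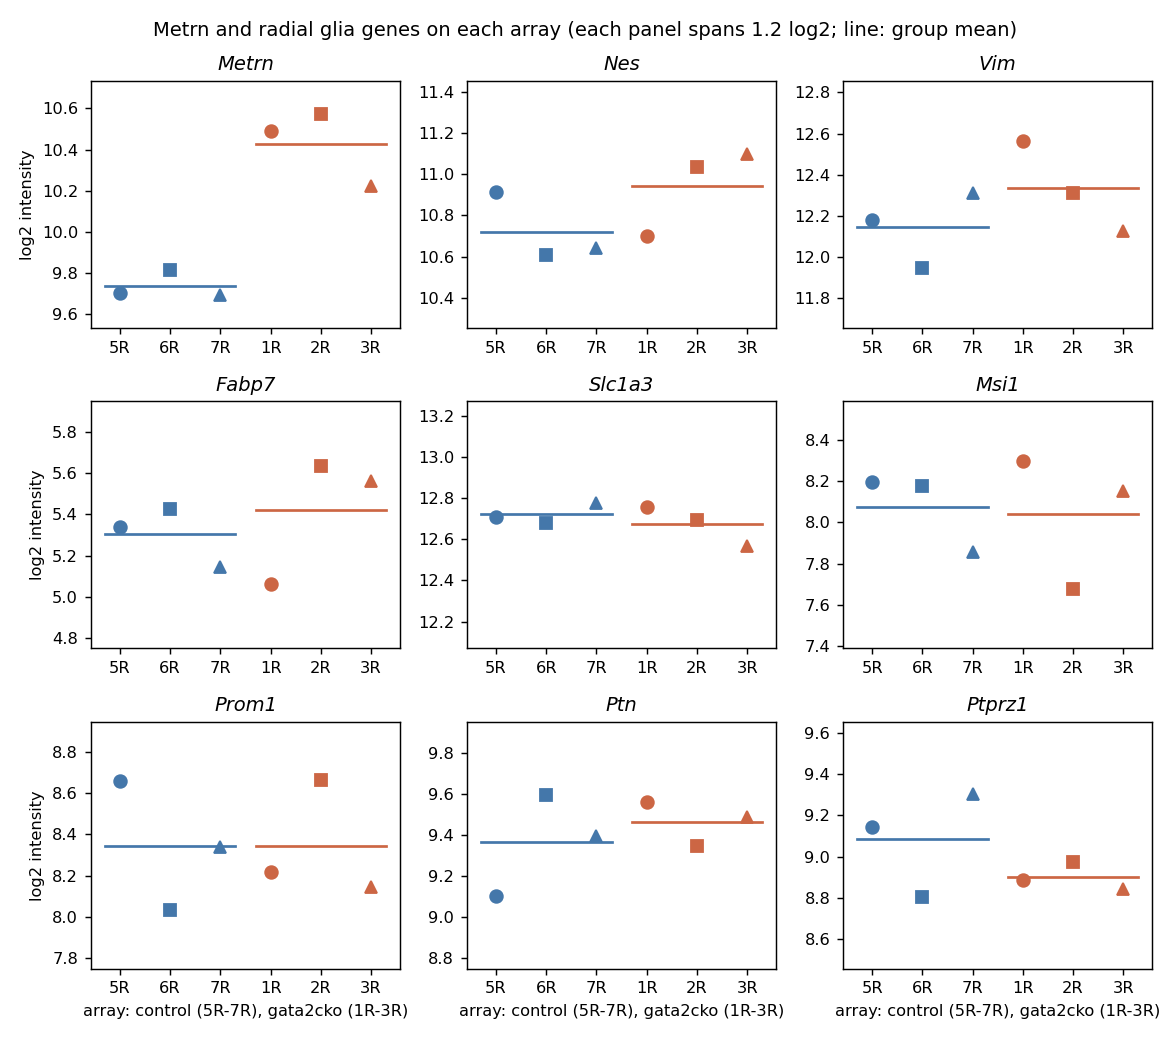
Normalized log2 intensity of Metrn and the 8 radial glia genes (1 probe per gene) on the 3 control arrays (5R, 6R, 7R, blue) and the 3 gata2cko arrays (1R, 2R, 3R, orange); lines are group means and every panel spans the same height. The Metrn groups are apart, at 9.69 to 9.82 and 10.22 to 10.57, and in each other panel the groups overlap.

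Both genomic neighbours of Metrn were measured, with 0 annotated genes between them and Metrn on chromosome 17. Antkmt, a lysine methyltransferase gene, read 11.73, 11.84 and 11.72 in controls and 12.07, 11.75 and 11.71 in mutants, a difference of 0.08 ± 0.11 (adjusted p = 0.872). Fbxl16, an F-box protein gene, differed by 0.00 ± 0.15 (adjusted p = 0.997), with group means of 7.65 and 7.66. The groups overlapped for both neighbours.

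The tested genes most like Metrn over the 6 arrays were found by the root mean square difference between log2 profiles, each centred on its own mean. The 5 closest of 10523 were Hps1 at 0.057, Ercc6l at 0.103, Kel at 0.104, Etv4 at 0.113 and Tmem121 at 0.117. A flat line would be at 0.363 by the same measure, and 4252 genes were closer to Metrn than that. Likeness was measured on the same arrays as the group difference, so the 5 genes share the step between the groups by construction and get no test. Hps1, which encodes a subunit of a complex for lysosome-related organelles, had means of 5.11 and 5.86, and Tmem121 had means of 6.90 and 7.69. Kel, an endopeptidase of the erythroid surface, had means of 5.46 and 6.01, and Ercc6l, a helicase of mitotic chromosomes, had means of 5.05 and 5.62. Etv4, an Ets factor that responds to FGF signals, was above background on 0 of 3 control arrays and all 3 mutant arrays, with measured means of 4.70 and 5.21 and a lower bound of 1.17-fold. In this bound a control value below the dimmest detected probe of its array was replaced by that probe's value, and sampling error is not counted.

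None of the 8 radial glia genes came near this rank. Vim was the closest at 0.306 (rank 1588), followed by Nes at 0.326 (rank 2383) and Ptn at 0.348 (rank 3446). These 3 were closer to Metrn than a flat line, and the other 5 were farther: Fabp7 at 0.368, Slc1a3 at 0.381, Prom1 at 0.420, Msi1 at 0.455 and Ptprz1 at 0.481.

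**Figure D2:**
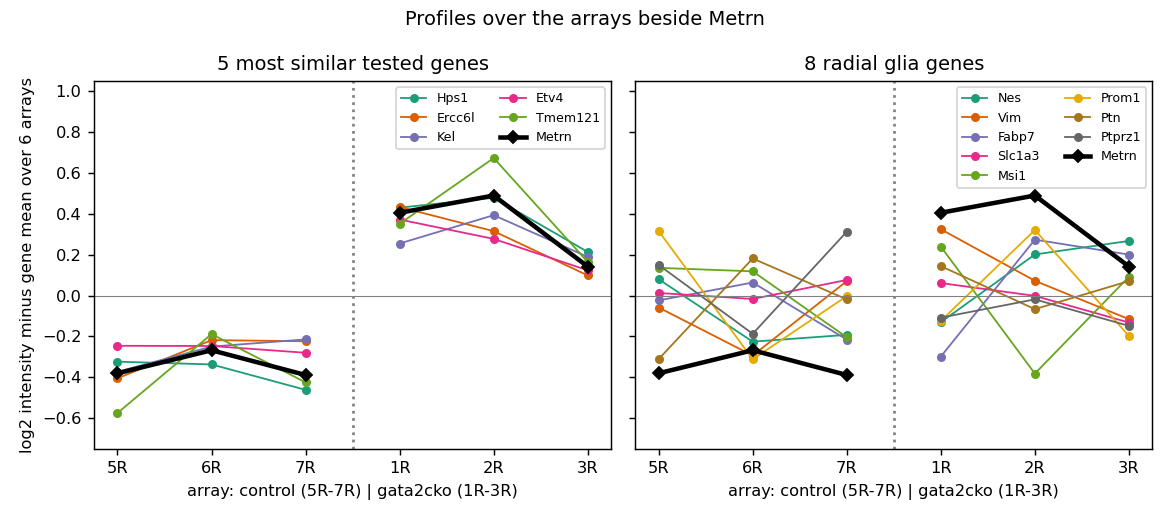
Log2 intensity minus the gene's mean over the 6 arrays, for Metrn (black) beside the 5 most similar tested genes (left) and beside the 8 radial glia genes (right); lines only join the values of a gene within a group, whose arrays have no order. The left-hand genes share the step of Metrn between groups, by which they were picked. For each right-hand gene the groups overlap, with single values from -0.38 (Msi1, array 2R) to 0.32 (Vim, array 1R).

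The other secreted factor among the members is Ptn, a heparin-binding growth factor that radial glia deposit in the matrix. Its detected probe read 9.10, 9.60 and 9.40 in controls and 9.56, 9.35 and 9.49 in mutants. The lowest and the highest value were both controls, so the mutants lay inside the control range. The difference was 0.10 ± 0.13 (95% interval -0.18 to 0.38, adjusted p = 0.865). A further Ptn probe was above background on 0 of 6 arrays.

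Ptprz1, the receptor tyrosine phosphatase that binds pleiotrophin, had 2 detected probes that pointed in opposite directions. The brighter one read 9.14, 8.80 and 9.30 in controls and 8.88, 8.97 and 8.84 in mutants, a difference of -0.18 ± 0.13 (95% interval -0.46 to 0.10, adjusted p = 0.738). The dimmer one read 6.63, 6.29 and 6.69 in controls and 6.83, 6.99 and 6.49 in mutants, a difference of 0.24 ± 0.16 (95% interval -0.11 to 0.59, adjusted p = 0.724 over all 19936 kept probes, of which 0.145% were called). The groups overlapped on both probes, so neither gave a direction beyond the spread between pools. The probes are annotated to different transcripts of the gene, and with both averaged the difference was 0.03.

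The intermediate filament genes had the most positive differences of the 8, and neither passed. Nes, which encodes nestin, read 10.91, 10.61 and 10.64 in controls and 10.70, 11.03 and 11.10 in mutants. Arrays 2R and 3R were above all controls, but mutant array 1R was below control array 5R. The difference was 0.23 ± 0.12 (95% interval -0.04 to 0.49, adjusted p = 0.641), and 8.93% of all tested genes, 940, had a more positive one. Without mutant array 1R the Nes difference was 0.35 ± 0.11 (unadjusted p = 0.00858, adjusted p = 0.249), also not called, and 12.4% of all tested genes then had an unadjusted p under 0.05. A dimmer Nes probe, also above background on all arrays, gave 8.58, 8.42 and 8.45 in controls and 8.45, 8.51 and 8.56 in mutants. Its difference was 0.02 ± 0.11 (95% interval -0.21 to 0.25).

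Vim, which encodes vimentin, read 12.18, 11.95 and 12.31 in controls and 12.56, 12.31 and 12.12 in mutants. Only mutant array 1R was clearly above the controls, and array 3R lay below 2 of them. The difference was 0.19 ± 0.12 (95% interval -0.08 to 0.46, adjusted p = 0.714). A further Vim probe was above background on 0 of 6 arrays. The mutant pools did not share an order between these genes: array 1R was the lowest mutant for Nes and the highest for Vim, and for Metrn array 2R was the highest and array 3R the lowest.

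Fabp7, the brain lipid-binding protein, was measured close to background, so its probe could show little. It read 5.34, 5.43 and 5.15 in controls and 5.06, 5.63 and 5.56 in mutants, and the mutant group held both the lowest and the highest value. The difference was 0.12 ± 0.18 (95% interval -0.26 to 0.50, adjusted p = 0.887). Its raw brightness was 81 to 93 in controls and 85 to 102 in mutants, beside raw medians of 69.8 to 76.7 over all probes. The stricter detection filter removed this gene.

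Slc1a3, the glutamate and aspartate transporter GLAST, had the narrowest interval of the 8. It read 12.71, 12.68 and 12.77 in controls and 12.76, 12.70 and 12.57 in mutants. The groups overlapped, with mutant array 3R the lowest and control array 7R the highest. The difference was -0.05 ± 0.09 (95% interval -0.24 to 0.15, adjusted p = 0.908).

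Msi1, the RNA-binding protein musashi, read 8.19, 8.18 and 7.85 in controls and 8.30, 7.68 and 8.15 in mutants. The mutant group held both the highest and the lowest value, and the difference was -0.03 ± 0.16 (95% interval -0.38 to 0.32, adjusted p = 0.971). Its other probe was above background on 0 of 6 arrays.

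Prom1, the pentaspan membrane protein prominin, read 8.66, 8.03 and 8.34 in controls and 8.22, 8.66 and 8.14 in mutants. Both groups had 1 array at 8.66, and the difference was -0.00 ± 0.17 (95% interval -0.37 to 0.37, adjusted p = 0.999). Of its 2 other probes, 1 was above background on 0 arrays and 1 on 2 mutant arrays only, and neither passed the detection filter.

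**Figure D3:**
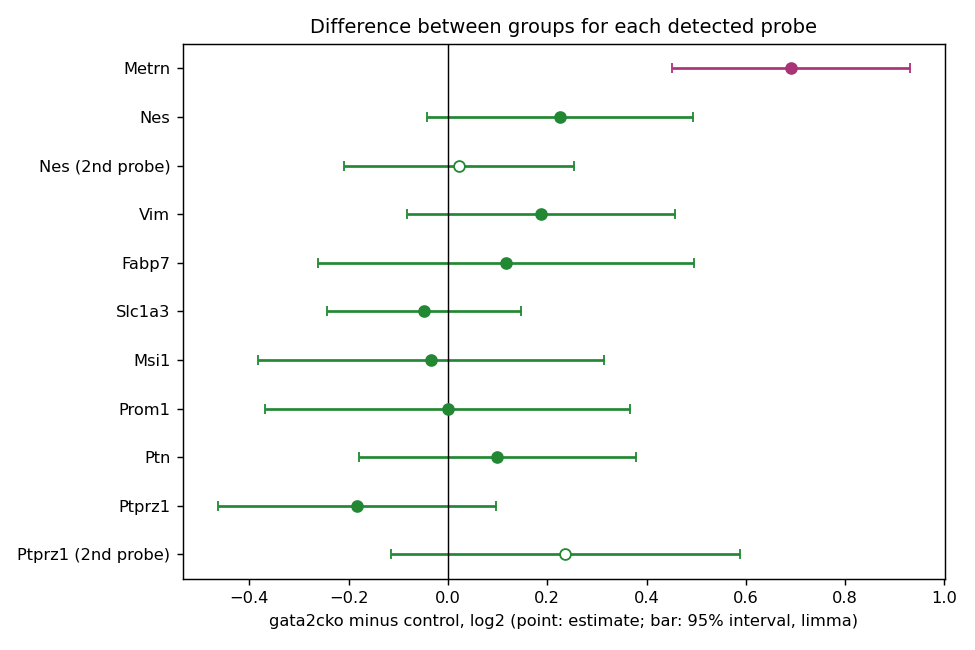
Mutant minus control difference (log2) with its 95% interval from limma for the 11 member probes that passed the detection filter; open points are the dimmer probes of Nes and Ptprz1. The interval of Metrn, 0.45 to 0.93, lies above 0, and every other interval holds 0.

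None of the 8 radial glia genes was called in either direction by limma, and with 0.171% of all tested genes called, 0 of 8 lies near that background. At an unadjusted p under 0.05 the count was also 0 of 8, beside 8.83% of all tested genes. The groups overlapped for all 8, while 14.1% of all tested genes had groups that did not overlap. Of the 8, 4 were positive and 4 negative, with a median difference of 0.05, beside 0.01 over all tested genes, of which 53.3% were positive. Their differences ran from the 12.6th to the 91.1st percentile of all tested genes. On the 1 probe used per gene, the upper limit of the 95% interval was at most 0.50. It lay below the Metrn estimate of 0.69 for all 8, but for 3 of them it lay above the lower limit of Metrn, 0.45. The dimmer detected Ptprz1 probe had an upper limit of 0.59, also below the Metrn estimate and above its lower limit. Smaller differences than that of Metrn lie within these intervals. The difference between each gene and Metrn was not tested, because Metrn had been chosen for its value.

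**Figure D4:**
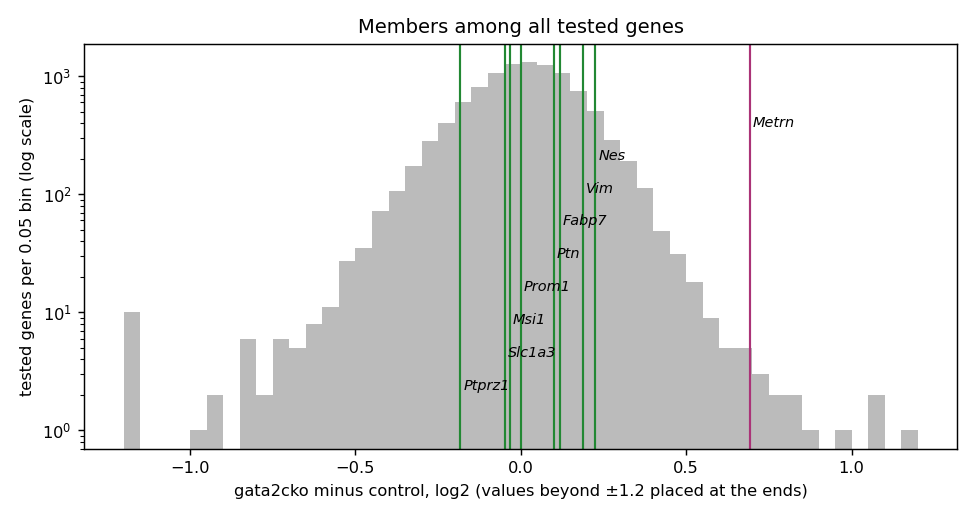
Histogram of the mutant minus control difference (log2) over the 10524 tested genes, on a log count axis, with lines at Metrn (magenta) and the 8 radial glia genes (green). Metrn lies in the upper tail at 0.69, and the 8 lie between -0.18 and 0.23.

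A longer list of 34 other genes of radial glia and neural progenitors was read in the same fit. Of these 27 were measured and 0 were called in either direction, beside 0.171% of all tested genes. Their median was 0.05, with 19 positive and 8 negative. At an unadjusted p under 0.05 there were 5 of 27 higher, a larger share than the 4.34% of all tested genes, and 1 lower, beside 4.48%. The list as a set was not tested. Without mutant array 1R 0 were called, and 6 higher and 2 lower had such a p, beside 12.4% of all tested genes in either direction. The groups did not overlap for 5 that were higher (7.69% of all tested genes) and 1 that was lower (6.45% of all tested genes). Hes5, a target of Notch that keeps progenitors undifferentiated, read 9.42, 9.55 and 9.51 in controls and 9.96, 9.74 and 9.88 in mutants, a difference of 0.37 ± 0.10 (adjusted p = 0.331). All mutants were above all controls, but the difference did not pass over all genes. Tead2, a TEAD transcription factor, differed by 0.29 (adjusted p = 0.412) and Rfx4, a winged-helix factor of neural progenitors, by 0.30 (adjusted p = 0.439). Aldoc, a glycolytic enzyme that marks astrocytes, went the other way at -0.54 ± 0.15 (adjusted p = 0.327). Their 4 unadjusted p-values were the smallest of the list. Gli3, at 0.40 (adjusted p = 0.455), and Lrp2, at 0.36 (adjusted p = 0.494), were the remaining genes with an unadjusted p under 0.05. Both were higher with no overlap.

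**Figure D5:**
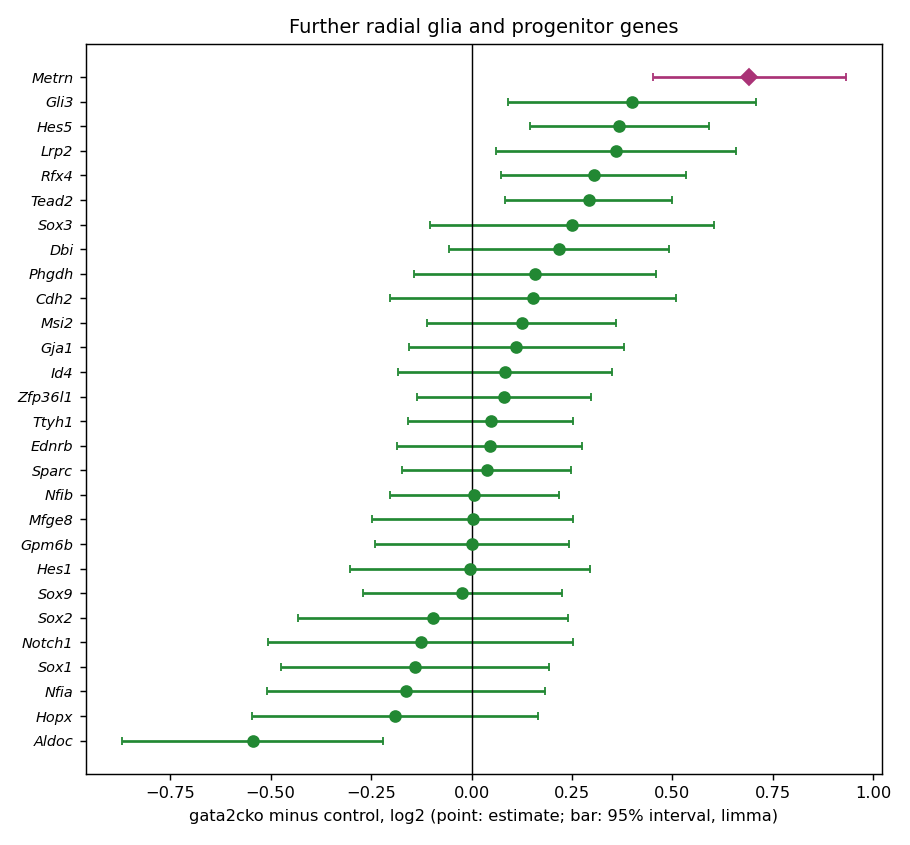
Mutant minus control difference (log2) with its 95% interval from limma for the 27 measured genes of the longer radial glia and progenitor list, with Metrn on top. The estimates run from -0.54 (Aldoc) to 0.40 (Gli3), all below the Metrn estimate of 0.69. The interval of Gli3, 0.09 to 0.71, reaches above that estimate. Of the 27, 0 were called, beside 0.171% of all tested genes.

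Genes of meteorin's own pathway were read next. Metrnl, the paralog of Metrn, read 6.03, 5.74 and 5.73 in controls and 5.87, 5.67 and 5.60 in mutants, a difference of -0.12 ± 0.15 (adjusted p = 0.855). In astrocyte formation meteorin is known to act through JAK and STAT3. Of 13 listed genes of that pathway 8 were measured and 0 were called, beside 0.171% of all tested genes. At an unadjusted p under 0.05 the count was also 0 of 8, beside 8.83% of all tested genes. The list's median was 0.03. The feedback inhibitor Socs3 differed by 0.25 ± 0.13 (adjusted p = 0.609), Tyk2 by 0.09 and Jak1 by 0.08. Gfap, the astrocyte filament gene, had 2 probes, both above background on 0 of 6 arrays.

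Among 15 partners of pleiotrophin and Ptprz1, 11 were measured and 0 were called, beside 0.171% of all tested genes. Of the 11, 2 had an unadjusted p under 0.05, beside 8.83% of all tested genes. The list's median was -0.08, with 2 positive and 9 negative. Midkine (Mdk), the paralog of pleiotrophin, read 12.05, 12.00 and 12.05 in controls and 12.31, 12.31 and 12.24 in mutants, a difference of 0.25 ± 0.09 (adjusted p = 0.435). The mutants were all above the controls. Cntn1, an adhesion molecule of neurons that binds Ptprz1, read 7.97, 7.72 and 7.85 in controls and 7.06, 7.35 and 7.12 in mutants, a difference of -0.67 ± 0.13 (adjusted p = 0.0765), also with no overlap. Lrp1 differed by -0.16 and Alk by -0.17, with overlapping groups. Of 18 paralogs of the members, 13 were measured and 0 were called, beside 0.171% of all tested genes, with a median of -0.06. The 1 at an unadjusted p under 0.05, Mdk, lies near the 8.83% of all tested genes. Beside Mdk the smallest p-values were those of Synm at -0.26, Slc1a6 at -0.21 and Msi2 at 0.13.

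Markers of other cell types that the dissected tissue could hold were set beside Metrn. A summed level is the log2 of the summed linear normalized values of a list. Called means an adjusted p under 0.05 (limma), as for 0.171% of all tested genes. At an unadjusted p under 0.05 were 8.83% of all tested genes. So were 2 of 5 measured erythroid, 2 of 6 floor plate, 1 of 6 microglial, 1 of 2 oligodendrocyte precursor and 1 of 4 mural markers. There were 0 in the lists for young neurons, endothelium, astrocytes, roof plate and rhombomere 1. Young neuron markers (9 of 11 measured, 0 called, median -0.08) summed to 14.55 to 14.71 in controls and 14.50 to 14.61 in mutants. Of the 9, 1 was positive and 8 were negative, while 53.3% of all tested genes were positive. Dcx was at -0.16, Nefm at -0.26, Elavl3 at 0.16 and Rbfox3 at -0.16. Only Dcx was lower with no overlap, as were 6.45% of all tested genes. Endothelial markers (8 of 9, 0 called, median -0.02) summed to 10.74 to 11.00 and 10.69 to 10.87, with Cldn5 at -0.24, Esam at -0.15, Tek at 0.17 and Pecam1 at 0.11. Nes and Vim are also made by endothelial and mesenchymal cells, so these lists bear on them too.

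Of 10 mural and mesenchymal markers 4 were measured and 1 was called, beside 0.171% of all tested genes. This was Acta2, smooth muscle actin. Its mean was 6.21 in the mutants and was measured as 4.88 in the controls, with 0 of 3 control arrays above background. The measured difference was 1.34 ± 0.16 (95% interval 0.99 to 1.68, adjusted p = 0.00132 by limma). With control values replaced as for Etv4, the estimate was 2.35-fold. Sampling error is not counted in that value, so the true rise may be smaller. The list's median was 0.03, with Rgs5 at -0.35, Cspg4 at 0.11 and Dcn at -0.06, and its sums were 8.26 to 8.66 in controls and 8.43 to 8.68 in mutants. Col1a1, Col1a2, Col3a1, Lum and Tagln were above background on 0 arrays. Erythroid markers (5 of 6 measured, 0 called) had a median of 0.27, all 5 positive, with Hbb-bh1 at 0.53 (adjusted p = 0.292), Hba-x at 0.41, Alas2 at 0.27 and Hba-a1 at 0.08. Their sums were 15.60 to 15.78 and 15.69 to 15.90. The adult beta-globin genes, which the list does not hold and which were chosen after their values were seen, went the other way: Hbb-bs at -0.41 (adjusted p = 0.238) and Hbb-bt at -0.39 (adjusted p = 0.326), both with no overlap. They are near-identical copies, so their probes may read each other's RNA. Hbb-bh1 and Hba-x thus differed in direction from these 2, while Hba-a1 (0.08) and Hbb-y (0.03) lay near 0 with overlapping groups. Genes chosen after their values were seen do not test the list. Of the 5 listed markers measured, 3 were higher with no overlap, beside 7.69% of all tested genes. Without mutant array 1R, Hbb-bh1 and Hba-x were called higher, at 0.70 and 0.55 (adjusted p = 0.00782 and 0.0416), beside 0.494% of all tested genes, and Hbb-bs was at -0.33 and Hbb-bt at -0.28 (adjusted p = 0.181 and 0.249).

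Microglial markers (6 of 7 measured, 0 called, median -0.14) summed to 8.51 to 8.68 and 8.48 to 8.51, with Csf1r at -0.39, Cx3cr1 at -0.31, C1qb at 0.14 and C1qa at -0.16. Of 5 oligodendrocyte precursor markers 2 were measured, Olig1 at -0.66 (adjusted p = 0.331) and Sox10 at -0.18. Neither was called, and their median was -0.42. Their sum was lower in every mutant (7.38 to 7.69) than in any control (7.81 to 8.40). So was Olig1, the brighter of the 2, while the Sox10 groups overlapped. Of all tested genes, 6.45% were lower with no overlap. Olig2 was above background on 0 arrays. Astrocyte markers (3 of 5, 0 called, median -0.09) summed to 8.73 to 8.84 and 8.70 to 8.79, with Aqp4 at 0.14, Aldh1l1 at -0.10 and Slc1a2 at -0.09. Floor plate markers (6 of 8, 0 called, median 0.02) summed to 11.52 to 12.02 and 11.61 to 11.95, with Foxa2 at 0.65 (adjusted p = 0.311), Foxa1 at 0.31, Spon1 at -0.20 and Shh at -0.07. Of 7 roof plate and choroid plexus markers 2 were measured and 0 called, with a median of -0.07, Folr1 at -0.23 and Msx1 at 0.09. Ttr, the choroid plexus marker, was above background on 0 arrays.

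The 6 markers of rhombomere 1 and its neighbours were all measured and 0 were called, beside 0.171% of all tested genes, with a median of -0.08. En1 differed by -0.25 ± 0.13 (adjusted p = 0.609), En2 by -0.18 and Hoxb2 by -0.20. Gbx2, a factor of the anterior hindbrain, differed by 0.67 ± 0.36 (adjusted p = 0.628) and ranged from 6.40 to 7.91 in controls and from 6.90 to 8.31 in mutants. Hoxa2, which is made from the second rhombomere backwards, was above background on 1 of 3 control arrays and 2 of 3 mutant arrays. For Metrn the 3 controls spanned 9.69 to 9.82. The part of these lists in the Metrn difference was not tested.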

How the data were processed

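RNA of 3 control and 3 mutant pools was measured, each pool on 1 array. Probe intensity, linear and not normalized per the file headers, was deposited by the authors with a detection p-value per probe and array. The submitters' processing notes name GenomeStudio 1.0, with no role stated. Column names give the genotype and an array number found in no sample title, so a column stands for a replicate of its group and for no titled sample. A second deposited table holds normalized intensity per sample and served as an alternative.

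From the deposited intensity, log2 values were made by neqc of limma 3.58.1 (R 4.3.3; offset 16, quantile). Of 45276 probes, 19936 were kept, those detected (p-value under 0.05) on 3 or more of 6 arrays. Symbols came from the platform annotation: 34881 probes had 1 symbol, 18 several and 10377 none there, and 34803 of the named probes matched the GRCm38.p6 gene table, which changed 0 symbols. All kept probes entered 1 limma fit (lmFit, eBayes with an intensity trend). A gene is its kept probe with the highest mean, which left 10524 genes, over which p-values were adjusted by the Benjamini-Hochberg method at a threshold of 0.05. All tests were two-sided, and the procedure was tested on simulated data.

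The members and the 14 gene lists (147 genes) were chosen with earlier results of these data known, and the CCAAT and GC box motifs after the sequences were read. Named are the members with every probe, list genes that were called and up to 4 further per list with the smallest unadjusted p, the 5 tested genes most like Metrn, and its nearest tested neighbours. Gli3 and Lrp2 were named in addition, after their values were seen. Labels call the pools biological replicates. The sources used here tie no array to a BeadChip or day, so no such batch could be tested. Alternatives were leaving out each array, array weights, a fit without the intensity trend, averaging the probes of a gene, no detection filter or one that asks for a p-value under 0.01 on each of the 3 arrays of either group, the authors' normalized table with and without a replicate block, median scaling, a larger offset (50), and raw log2 intensity without background correction. Counts over the lists without the array of lowest weight were added after seeing the data.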

Additional observations from a re-analysis of the deposited data

How the results depend on the processing

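Metrn was higher under all 16 alternatives, by 0.62 to 0.79, and was called in 10. It was not called without an intensity trend (0.69, adjusted p = 0.114) or on the authors' normalized table with the replicate block (0.71, adjusted p = 0.0700). Nor was it called in 4 of the 6 fits that left out an array (0.62 to 0.73, adjusted p = 0.0863 to 0.146). These fits hold fewer arrays; otherwise the cause was not tested. The replicate block called 14 genes where the same table without it called 18. No source used here says what joins same-numbered pools beyond the number. The correlations of their deviations from the group means were -0.04, -0.09 and -0.30, and those of differently numbered pools were -0.10 to 0.19. Deviations within a group sum to 0, so these values cannot show whether such pools shared a batch. The number of genes called was 12 to 52 leaving out 1 array, 52 without mutant array 1R, and 13 to 23 under the other alternatives. Of the 8 radial glia genes 0 were called under any alternative, and their median was -0.00 to 0.11. Differences near 0 changed sign: under median scaling Msi1 was 0.049, Prom1 0.089 and Slc1a3 0.056, where the median of all genes was 0.08. Prom1 was 0.046 with array weights, and Ptprz1 0.027 with the mean of its probes. Leaving out 1 array gave -0.16 to 0.15 for Msi1, -0.16 to 0.16 for Prom1, -0.032 to 0.21 for Ptn and -0.091 to 0.0056 for Slc1a3. The other 4 kept their sign but also moved by over 1.5 times: Vim 0.072 to 0.29, Fabp7 0.0093 to 0.30, Ptprz1 -0.32 to -0.073 and Nes 0.15 to 0.35. Fabp7 had no value under the stricter filter. Probes close to background, Fabp7 among them, have little room to show a fall. The size of their difference also depends on the background correction, and without it Fabp7 was 0.057.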
